A study of Mus musculus with 71 samples.

Results

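The genes of oxidative phosphorylation were taken by their symbols alone, with no use of measured values: the Nduf genes of the a, b, c, s and v families, Sdha to Sdhd, and the genes whose symbols begin with Uqcr, Cox4 to Cox8 or Atp5 were the nuclear members, and the mt-Nd, mt-Co, mt-Atp and mt-Cytb genes were the mitochondrial members. Symbols of pseudogenes marked -ps were left out. The rule took 100 of the 37681 gene rows, of which 87 lay on nuclear chromosomes and 13 on the mitochondrial genome. These rows held 99 symbols, because Ndufb8 had 2 gene identifiers, and the second was near 0. A few rows carry the name without being a subunit: Atp5l2 is annotated as a pseudogene, Cox4nb encodes a subunit of a membrane protein complex of the endoplasmic reticulum, and Atp5sl is a relative of the coupling factor gene Atp5s.

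Multi-subunit complexes of the inner mitochondrial membrane carry out oxidative phosphorylation. Complex I (NADH dehydrogenase, the Nduf genes) and complex II (succinate dehydrogenase, the Sdh genes) pass electrons to complex III (cytochrome bc1, the Uqcr genes and mt-Cytb) and complex IV (cytochrome c oxidase, the Cox genes), while complex V (ATP synthase, the Atp5 genes) uses the resulting proton gradient to make ATP. Complexes I, III, IV and V are built from proteins of both genomes, whereas complex II is wholly nuclear, and neurons draw most of their ATP from this pathway.

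Wild-type C57BL/6 adult mice of both sexes self-administered cocaine or saline intravenously and then underwent 1 or 28 days of abstinence, after which micro-punches of nucleus accumbens (NAc), ventral tegmental area (VTA) and prefrontal cortex (PFC) were profiled by RNA-seq. Each of the 12 groups held 6 libraries, except saline VTA at 28 days, which held 5, for 71 libraries in all. Sex was not given per library, and nothing tied a library to 1 mouse or the 3 regions of a mouse to each other, so p-values measure the spread between libraries only. Libraries at 28 days are numbered here by column order. Libraries held between 20971967 and 49700932 reads in genes, and no pair was identical. In saline mice at 28 days, defining markers separated the regions. The summed level of the striatal neuron list was 4288 to 7545 CPM (counts scaled to a common library total) in NAc and 208 to 381 in VTA, and the dopamine neuron list was at 1081 to 5351 CPM in VTA and no higher than 61.6 CPM elsewhere. The cortical excitatory neuron list was at 1569 to 2541 CPM in PFC, and up to 578 CPM in NAc. Saline PFC library 4 at 28 days also held 2625 CPM of the striatal list, and the other 11 PFC libraries at that time no more than 247 CPM. Its cortical list lay within the PFC range given above.

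Members of both genomes were abundant in every library. The nuclear members together took between 0.831% and 1.66% of all reads in genes, and the 13 mitochondrial members between 1.97% and 8.41%. Most group ranges of cocaine and saline overlapped widely. In NAc at 1 day, for example, the nuclear share was 0.881% to 0.988% with cocaine and 0.896% to 1.00% with saline, and the mitochondrial share 5.02% to 8.17% and 5.58% to 8.41%. In VTA at 28 days the saline group ran from 1.16% to 1.66% for nuclear members, the widest nuclear range of the 12 groups, and from 1.97% to 3.52% for mitochondrial members, against 1.11% to 1.26% and 3.05% to 3.34% with cocaine. Saline library 1 of this group held the highest nuclear share of the series (1.66%, next 1.30% in a saline VTA library at 1 day) and the lowest mitochondrial share (1.97%). Within groups, the SD of a nuclear member had a median of 0.136 on the log2 scale and that of a mitochondrial member a median of 0.311, so the mitochondrial values were the noisier.

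**Figure D1:**
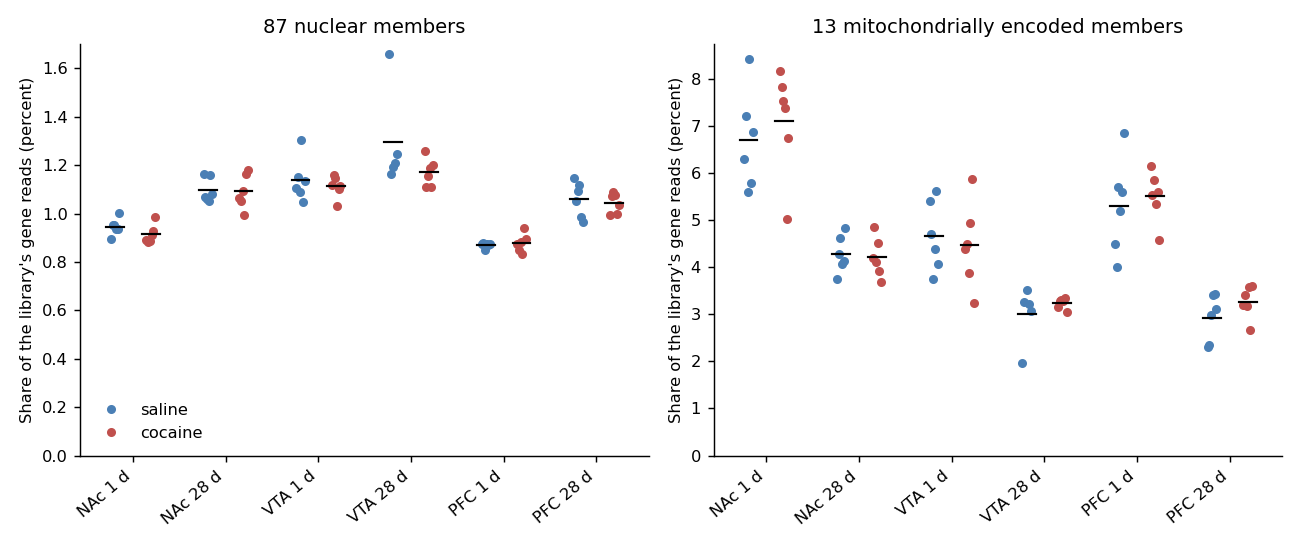
Share of reads in genes taken by the nuclear (one panel) and mitochondrial (the other) oxidative phosphorylation genes in each of the 71 libraries, by region and days of abstinence, with saline in blue, cocaine in red and group means as bars. Saline VTA library 1 at 28 days is the highest point for nuclear members (1.66%) and the lowest for mitochondrial members (1.97%).

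The mitochondrial members fell into 2 sets by level and by sequence. The 6 neighbouring genes, mt-Co2, mt-Atp8, mt-Atp6, mt-Co3, mt-Nd3 and mt-Nd4l, had mean levels of 406, 127, 210, 274, 58.0 and 92.4 RPKM (CPM per kilobase of gene length), whereas the other 6 genes of the same strand, mt-Nd1, mt-Nd2, mt-Co1, mt-Nd4, mt-Nd5 and mt-Cytb, were at 2269 to 12861 RPKM. The only member read from the opposite strand, mt-Nd6, was at 36.2 RPKM. In the mm9 genome, 98.8% to 100% of the 100-base windows of the 6 lower genes were also found letter for letter on nuclear chromosomes. That share was 60.8% for mt-Nd4, 30.8% for mt-Co1, 3.19% for mt-Nd2, and 0% for mt-Nd1, mt-Nd5, mt-Nd6 and mt-Cytb. How reads with several matches were counted is not given in the sources used here, and the part of these copies in the low levels was not tested. The within-group SD of the 6 copied genes ran from 0.261 to 0.816 on the log2 scale, against 0.207 to 0.311 for the other 6 of that strand, so medians of the mitochondrial members are given below for both sets.

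**Figure D2:**
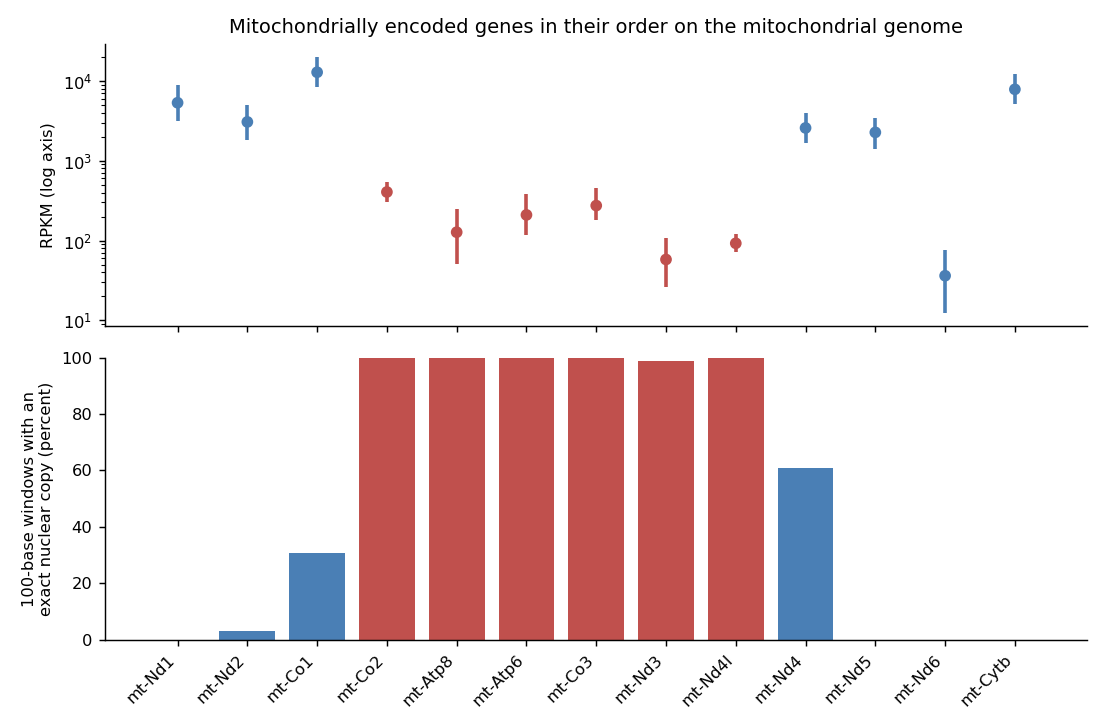
Mean RPKM over the 12 groups on a log axis, with lines from the lowest to the highest group mean (top), and percentage of 100-base windows with an exact copy on nuclear chromosomes (bottom), for the 13 mitochondrial members in genome order. The 6 genes in red have 98.8% to 100% of windows copied and lie at 58.0 to 406 RPKM, while mt-Cytb, with 0%, lies at 7859 RPKM.

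Some mitochondrial members share bases, and reads within such a stretch lie in both genes by position. How such reads were counted is not given in the sources used here. The 3 longer stretches are shown on the plus strand of the mitochondrial genome of mm9, with the shared bases in capitals, because 4 of the 6 genes they join are among the least abundant members. Not shown is position 8607, the last base of mt-Atp6 and the first of mt-Co3. The mt-Atp8 and mt-Atp6 genes, both for ATP synthase subunits, share 43 bases at positions 7927 to 7969, and the complex I genes mt-Nd4l and mt-Nd4 share 7 bases at 10167 to 10173. The genes mt-Nd5 and mt-Nd6 lie on opposite strands and share 14 bases at 13552 to 13565.
mt-Atp8 and mt-Atp6, chrM:7917-7979: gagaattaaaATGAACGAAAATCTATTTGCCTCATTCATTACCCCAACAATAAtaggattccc
mt-Nd4l and mt-Nd4, chrM:10157-10183: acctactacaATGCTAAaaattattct
mt-Nd5 and mt-Nd6, chrM:13542-13575: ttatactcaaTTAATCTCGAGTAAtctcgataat

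The first question was whether cocaine self-administration changed these genes in any region at either time. No member passed an adjusted p of 0.05 in any of the 6 comparisons, with edgeR on counts or limma on RPKM, and none passed in DESeq2. Of all genes tested, 0.0126% passed in NAc at 1 day, 0.186% in VTA at 1 day, 0.00693% in PFC at 1 day, and 0% in each region at 28 days. Between 82 and 84 of the 87 nuclear rows could be tested, together with all 13 mitochondrial members. The rows left out for low values were the second Ndufb8 identifier, Cox8b and Cox8c everywhere, Cox7b2 everywhere but PFC at 1 day, and Cox6a2 in VTA at 1 day. Members with an unadjusted p under 0.05 numbered 0 in NAc and VTA at 1 day, 1 in PFC at 1 day, 1 in NAc at 28 days, 7 in VTA at 28 days and 1 in PFC at 28 days. Of all 15878 genes tested in NAc at 1 day, 438 were higher and 198 lower at that level. In VTA at 1 day, 1677 of all 15042 genes tested were higher and 646 lower. The spread of the libraries bounds what this test could miss. The 95% interval of the change lay within 1.5-fold either way for 77 of 83 nuclear members in NAc at 1 day, 79 of 82 in VTA and 80 of 84 in PFC, and at 28 days for 82, 73 and 80 of 83, respectively. For the mitochondrial members it did so for only 8 to 11 of 13.

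**Figure D3:**
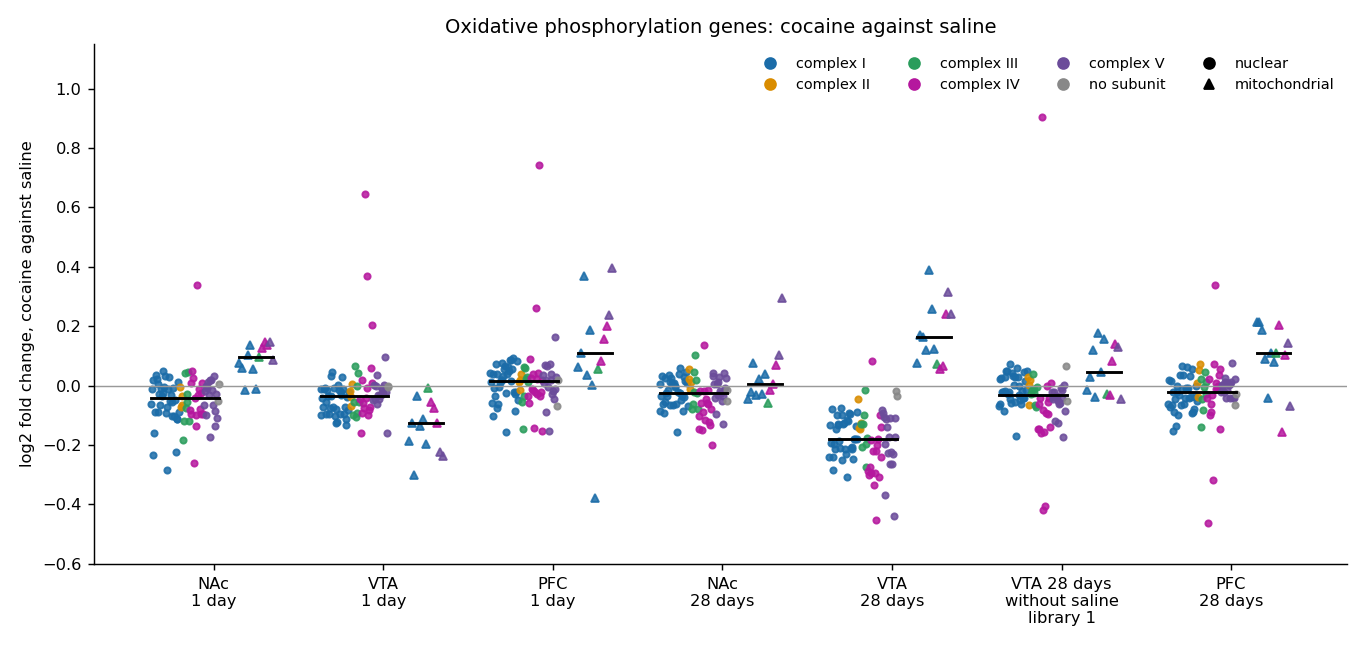
Log2 fold change, cocaine against saline, of each tested member in the 6 comparisons and in VTA at 28 days without saline library 1; circles are nuclear members coloured by complex, triangles are mitochondrial members and black lines are medians. The nuclear median in VTA at 28 days is -0.18 with all libraries and -0.03 without that library, and no member passed the test in any comparison.

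In NAc at 1 day, 63 of 83 nuclear members had a lower mean with cocaine and 20 a higher one, with a median log2 fold change of -0.04 against -0.00 over all genes. The lower means included 27 of 35 members of complex I, all 4 of complex II, 6 of 8 of complex III, 12 of 17 of complex IV and 13 of 17 of complex V. None of these differences passed the test. The lowest unadjusted p belonged to Ndufb7, a complex I subunit of the membrane arm, which ran from 4.15 to 6.19 RPKM (median 4.82) with cocaine and from 3.38 to 7.83 (median 6.10) with saline. These ranges overlapped, and the log2 fold change was -0.28 (SE 0.16, edgeR adjusted p = 1.00; exact permutation p = 0.214). Other lower means with a small p were those of Cox7c (log2 fold change -0.10), Uqcr10 (-0.18) and Ndufs5 (-0.10). Among the higher means, Cox7a1, the heart and muscle isoform of a complex IV subunit, had 0.654 to 2.33 RPKM (median 1.59) with cocaine and 0.663 to 2.03 (median 1.18) with saline, again overlapping (log2 fold change 0.34, SE 0.30; exact permutation p = 0.357). The mitochondrial members stood 11 higher and 2 lower with a median of 0.10, or 0.14 for the 6 copied genes and 0.08 for the other 7.

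In VTA at 1 day, 65 of 82 nuclear members had a lower mean with cocaine, with a median of -0.03 against 0.03 over all genes, and all 13 mitochondrial members were lower with a median of -0.13 (-0.18 over the 6 copied genes and -0.11 over the other 7). Cox6b2, known as the testis isoform of a complex IV subunit, ran from 2.48 to 15.2 RPKM (median 4.06) with cocaine and from 1.99 to 3.95 (median 2.86) with saline. Its log2 fold change of 0.64 (SE 0.36, limma adjusted p = 0.418) rested partly on the library at 15.2 RPKM, since the next cocaine library was at 4.35. Cox7a1 had 4.06 to 12.0 RPKM (median 6.05) with cocaine and 3.76 to 5.74 (median 5.11) with saline, with a log2 fold change of 0.37 (SE 0.22, limma adjusted p = 0.445). Both ranges overlapped. Of the lower means, those with the smallest p were Cox7a2l (log2 fold change -0.10), an assembly factor of respiratory supercomplexes, and the complex I genes Ndufb5 (-0.10), Ndufa10 (-0.10) and Ndufb8 (-0.12).

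Other cell-type markers differed between the groups of this comparison. The 4 tested markers of cortical excitatory neurons were all higher with cocaine, with a median log2 fold change of 1.31 (summed level 62.8 to 288 CPM with cocaine and 47.8 to 159 with saline), and none of the list was at 0. All 6 tested dopamine neuron markers had lower means (median -0.56, summed level 1165 to 2829 CPM with cocaine and 1934 to 4989 with saline), as did all 8 microglial markers (median -0.44). With the cortical list as a covariate, the mitochondrial median became 0.19 with 13 of 13 members higher, while the nuclear median stayed at -0.03. The sign of the mitochondrial members in VTA at 1 day thus depended on that term. In bulk tissue, fewer cells of a type and less RNA per cell cannot be told apart.

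In PFC at 1 day the nuclear members were divided, 48 higher and 36 lower, with a median of 0.02 against -0.01 over all genes. The mitochondrial members stood 12 higher and 1 lower with a median of 0.11, or 0.22 over the copied genes and 0.06 over the other 7. Cox7b2, the testis isoform of another complex IV subunit, ran from 0.384 to 1.05 RPKM (median 0.622) with cocaine and from 0.0659 to 0.812 (median 0.335) with saline, which was 5 to 14 reads a library against 1 to 11. It was the 1 member with an unadjusted p under 0.05 (log2 fold change 0.74, SE 0.34, limma adjusted p = 0.918; exact permutation p = 0.0823), where 1.64% of all genes tested were higher at that level. The next lowest p among higher means belonged to the complex I genes Ndufs5 (log2 fold change 0.09), Ndufs3 (0.09) and Ndufs1 (0.09). Among lower means it belonged to Atp5g2 (-0.15), 1 of 3 genes for subunit c of ATP synthase.

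At 28 days the nuclear members of NAc again stood near their saline level, 29 higher and 54 lower with a median of -0.02 against 0.00 over all genes. Complex IV was the most one-sided, with 16 of 17 members lower and a median of -0.08, while complex I was divided 14 to 21 and complex V 8 to 9. Ndufb9, a membrane-arm subunit of complex I, had 163 to 211 RPKM (median 180.0) with cocaine and 183 to 229 (median 199) with saline. The groups overlapped, and this was the 1 member with an unadjusted p under 0.05 (log2 fold change -0.16, SE 0.072, edgeR adjusted p = 0.729; exact permutation p = 0.0714), beside 3.42% of all genes tested that were lower at that level. The other lower means with the smallest p were Cox6c (-0.11), Cox8a (-0.13), Cox6a1 (-0.15) and Ndufa1 (-0.08). Uqcrc2, a core subunit of complex III, had the smallest p of the higher means (log2 fold change 0.10, SE 0.050, edgeR adjusted p = 0.754; exact permutation p = 0.0260), followed by Sdha, the catalytic flavoprotein of complex II, at 0.06 (edgeR adjusted p = 0.840). The mitochondrial members stood 7 higher and 6 lower. This split followed the nuclear copies: all 6 copied genes had higher means (median 0.07), and 6 of the other 7 lower ones (median -0.03).

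In VTA at 28 days, 82 of 83 nuclear members had a lower mean with cocaine and all 13 mitochondrial members a higher one. The nuclear median was -0.18 and the mitochondrial median 0.16 (0.24 over the copied genes and 0.12 over the other 7), against -0.03 over all genes. By complex, the median was -0.18 over 35 members of complex I, -0.13 over 4 of complex II, -0.15 over 8 of complex III, -0.24 over 17 of complex IV and -0.17 over 17 of complex V. The 1 nuclear member with a higher mean was Cox6a2, the heart and muscle isoform of a complex IV subunit, at 0.08, and its value ran from -0.31 to 0.90 when single libraries were left out (lowest without cocaine library 6, highest without saline library 1). Only 7 of 83 nuclear members had an unadjusted p under 0.05, all lower, where 6.39% of all genes tested were lower at that level.

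The values by library show what these estimates rest on. Cox6c, a structural subunit of complex IV, was at 63.7, 50.7, 55.3, 56.9, 51.5 and 54.3 RPKM in cocaine libraries 1 to 6, and at 91.1, 58.7, 61.9, 61.7 and 66.2 RPKM in saline libraries 1 to 5. Only cocaine library 1 reached the saline range, and saline library 1 stood far above the other 10. The log2 fold change of -0.29 (SE 0.11, edgeR adjusted p = 0.401; exact permutation p = 0.0152) became -0.16 without saline library 1. Cox4i1, the common isoform of the complex IV subunit that binds ATP, was at 656, 527.8, 606.8, 644.4, 557.9 and 638.9 RPKM with cocaine, and at 999, 627.2, 670.7, 645 and 749.3 with saline. Its groups overlapped at 627.2 to 656 RPKM, and its log2 fold change went from -0.29 to -0.15 without saline library 1.

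Ndufa4, now counted as a subunit of complex IV, was at 316, 255, 283, 276, 246 and 285 RPKM with cocaine and at 408, 292, 299, 317 and 317 with saline. Here too 1 cocaine library lay within the saline range, and the log2 fold change of -0.24 became -0.14 without saline library 1. For Ndufb9 (-0.31), Cox6a1 (-0.30) and Atp5g2 (-0.23) the values without that library were -0.17, -0.16 and -0.13. Cox7a1 behaved otherwise. Its levels were 6.06, 5.27, 5.02, 5.44, 5.03 and 3.69 RPKM with cocaine and 7.79, 4.49, 6.77, 9.12 and 6.65 with saline. Saline library 2 lay within the cocaine range and the other 4 saline libraries above it. Its log2 fold change was -0.45 (SE 0.19, edgeR adjusted p = 0.412; exact permutation p = 0.0541) with all libraries and -0.41 without saline library 1.

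Saline library 1 stood apart in gene groups beyond oxidative phosphorylation. Each gene's log2 CPM was set against its mean over the 11 VTA libraries of this time, and the median deviation of saline library 1 was 0.55 over nuclear members, -0.64 over mitochondrial members, 0.62 over cytosolic and 0.45 over mitochondrial ribosomal protein genes. Without it, 23 nuclear members were higher and 60 lower with a median of -0.03, and 8 mitochondrial members were higher and 5 lower with a median of 0.05. A single member then had an unadjusted p under 0.05, Cox6c, which was lower, as were 2041 of all 17091 genes tested. With all libraries, 77 of 80 tested cytosolic ribosomal protein genes also had lower means with cocaine (median -0.16, summed level 13481 to 15222 CPM with cocaine and 13331 to 22484 with saline; Rpl10l was at 0). So had all 7 oligodendrocyte markers (median -0.43), all 8 microglial (-0.43), all 6 endothelial (-0.45) and all 11 pericyte and smooth muscle markers (-0.41), whereas 6 of 7 dopamine neuron markers had higher means (0.14). Without saline library 1 the ribosomal genes were 43 higher and 37 lower (median 0.02). The oligodendrocyte (-0.50), microglial (-0.48), endothelial (-0.48) and pericyte and smooth muscle markers (-0.52) then all stayed lower. The dopamine neuron markers stayed higher in 6 of 7 (0.23). Of 6 tested cortical excitatory neuron markers, 5 were lower and 1 higher without saline library 1 (median -0.73). The part of these cell markers in the nuclear values was not tested.

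In PFC at 28 days, 32 nuclear members had a higher mean with cocaine and 51 a lower one, with a median of -0.02 against 0.00 over all genes. Complex I was lower in 26 of 35 members (median -0.04), and complexes IV and V were divided. Cox4i2, the alternative isoform of Cox4i1 known from lung and from cells at low oxygen, ran from 1.62 to 2.21 RPKM (median 1.96) with cocaine and from 2.19 to 3.77 (median 2.50) with saline. The groups met only at 2.19 to 2.21 RPKM. This was the 1 member with an unadjusted p under 0.05 (log2 fold change -0.46, SE 0.15, edgeR adjusted p = 0.843; exact permutation p = 0.00433), where 2.96% of all genes tested were lower at that level. Ndufa3 (-0.15) and Ndufa7 (-0.13), accessory subunits of complex I, came next. Among higher means the smallest p belonged to Cox7a1 (0.34), Sdhd (0.07) and Atp5l (0.08). The mitochondrial members stood 10 higher and 3 lower with a median of 0.11; the copied genes were divided 3 to 3 (median 0.03) and the other 7 were all higher (median 0.11). All 8 striatal markers had lower means (median -1.43), where saline library 4 held 2625 CPM of the list.

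The second question was whether the difference between cocaine and saline itself differed between 1 and 28 days, which was tested as an interaction in edgeR. No member passed an adjusted p of 0.05 in any region, beside 0.0181% of all genes in NAc, 0% in VTA and 0.00604% in PFC, and none passed in DESeq2. The change was more positive at 28 days than at 1 day for 54 of 83 nuclear members in NAc (median 0.03), 15 of 83 in VTA (median -0.08, but 66 of 83 and 0.09 without the saline VTA library 1 of 28 days) and 24 of 83 in PFC (median -0.03). Only VTA had members with an unadjusted p under 0.05, both of them complex IV isoform genes and both lower, where 10.3% of all genes tested were lower at that level. These were Cox7a1, with an interaction of -0.86 (SE 0.31, edgeR adjusted p = 0.189), and Cox6b2, with -1.24 (SE 0.51, edgeR adjusted p = 0.238). Cox6b2 in VTA at 28 days was at 2.57, 3.11, 2.42, 5.39, 2.39 and 3.94 RPKM with cocaine and 3.06, 3.30, 3.89, 5.92 and 4.61 with saline, with overlap. For both genes the mean with cocaine was above saline at 1 day and below it at 28 days. For Cox6b2 the 1-day side rested partly on 1 cocaine library, which held 210 of the 461 reads of its group. All 11 pericyte and smooth muscle markers had a negative interaction in VTA without the saline library 1 of 28 days (median -0.96). Their part in the value of Cox7a1 was not tested. The 13 mitochondrial members in VTA all had a positive interaction, from 0.11 for mt-Cytb to 0.65 for mt-Atp6, with a median of 0.37 (0.60 over the copied genes and 0.30 over the other 7). Without the saline VTA library 1 of 28 days this median was 0.25 with 13 of 13 positive, and the 1-day side of it turned sign with the cortical covariate, as given above. Also without that library, 5 of 6 tested cortical excitatory neuron markers had a negative interaction and 1 a positive one (median -1.36). The part of cortical tissue in the interaction of the members was not tested. In PFC the copied genes had a median interaction of -0.24, 6 of 6 negative, and the other 7 a median of 0.12, 7 of 7 positive.

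Lists of genes of mitochondria, energy metabolism, antioxidant defence and ribosomes were examined beside the members. No gene passed an adjusted p of 0.05 in edgeR, limma or DESeq2, in any cocaine comparison or interaction, among 31 rows of assembly factors, 20 regulators of mitochondrial biogenesis, 11 carriers and kinases of energy transfer, 18 genes of the citric acid cycle, 16 of glycolysis, 10 of antioxidant defence, 80 cytosolic and 76 mitochondrial ribosomal protein genes. In NAc at 28 days, 16 of 18 citric acid cycle genes had higher means with cocaine (median 0.05), led by Idh3a, a subunit of isocitrate dehydrogenase (log2 fold change 0.11, edgeR adjusted p = 0.664). At 1 day in NAc, 15 of these 18 had lower means (median -0.02). In VTA at 28 days, 15 of 18 citric acid cycle genes (median -0.07), 10 of 11 carriers and kinases (median -0.13) and 10 of 10 antioxidant genes (median -0.14) had lower means. Without saline library 1 these were 13 of 18 (-0.02), 8 of 11 (-0.03) and 9 of 10 (-0.06). The nuclear receptors Esrrb (-0.84) and Esrrg (-0.64), which regulate genes of oxidative metabolism, had the smallest p of the biogenesis list there (edgeR adjusted p = 0.394 and 0.395).

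The third question was how the members differ between the regions, which was tested in saline mice, at 28 days and, in other mice, at 1 day. The 3 region contrasts of a time share libraries, so they are not independent of each other. Here many members passed the test. At 28 days, 6 of 83 nuclear members were higher and 26 lower in NAc than in VTA, where 29.8% of all genes tested were higher and 32.6% lower. Between NAc and PFC, 6 were higher and 2 lower (all genes 20.0% and 20.7%). Between PFC and VTA, 2 were higher and 25 lower (all genes 28.1% and 29.8%). The share of nuclear members lower in NAc or PFC than in VTA was thus close to that of all genes, and the share that was higher was smaller. At 1 day, 6 nuclear members were higher and 41 lower in NAc than in VTA (all genes 32.6% and 33.3%), 18 were higher and 1 lower in NAc than in PFC (20.5% and 20.4%), and 3 were higher and 57 lower in PFC than in VTA (31.6% and 32.9%).

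Many of the lower nuclear calls against VTA were made at both times. The share of all genes called at both times was not worked out, so the counts below describe the members only. Of the 26 members lower in NAc than VTA at 28 days, 20 were lower at 1 day too, which is 76.9% of the 28-day and 48.8% of the 1-day calls. For PFC against VTA it was 23 members, 92.0% of the 28-day and 40.4% of the 1-day calls. No member was called in opposite directions at the 2 times. The mitochondrial members went the other way in NAc. All 13 were higher in NAc than in VTA by sign, with 12 called at 28 days (median 0.77) and 13 at 1 day (median 0.66), and 12, all but mt-Atp8, called at both. Of all genes, 29.8% were higher at 28 days and 32.6% at 1 day. In NAc against PFC, 8 were called at 28 days (median 0.56, copied 0.63, other 0.53) and 3 at 1 day (median 0.39, copied 0.49, other 0.36), all higher. Of all genes, 20.0% and 20.5% were higher there, so the 1-day count was close to that share. In PFC against VTA, 1 was called at 28 days (median 0.14) and 4 at 1 day (median 0.36), also higher. These counts did not exceed the share of all genes that were higher, 28.1% and 31.6%.

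**Figure D4:**
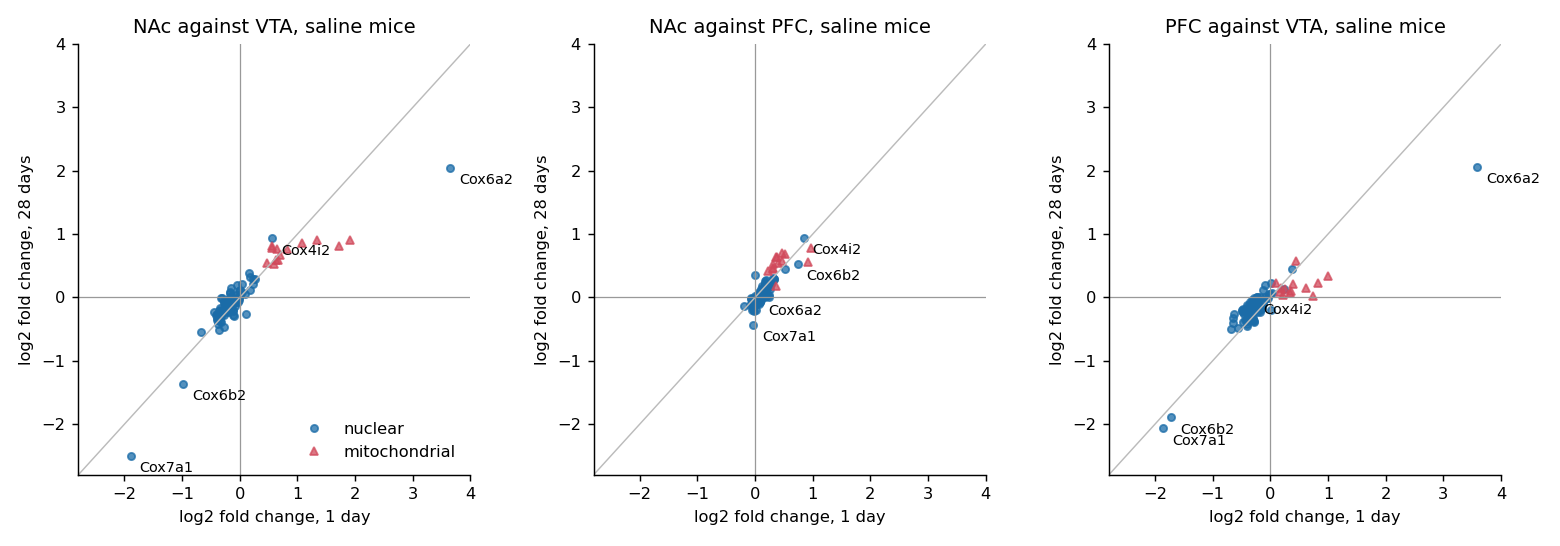
Log2 fold change between regions in saline mice at 1 day against that at 28 days, 1 panel per pair of regions, with nuclear members as circles, mitochondrial members as triangles and the line of equal values. Mitochondrial members lie above 0 at both times in all panels, and Cox7a1 and Cox6b2 are among the lowest nuclear points against VTA.

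The VTA group at 28 days included the library that stood apart. Without saline VTA library 1, the nuclear members were 18 higher and 19 lower in NAc than in VTA (median -0.02, before -0.10), 15 higher and 5 lower in NAc than in PFC, and 8 higher and 16 lower in PFC than in VTA (median -0.05, before -0.18). Then 14 members were lower in NAc than in VTA at both times and 16 in PFC than in VTA. The mitochondrial median of NAc against VTA was 0.62 with 12 members called, and that of PFC against VTA 0.02 with 8 members higher and 5 lower by sign. Without NAc saline library 4, 21 nuclear members were called between NAc and VTA, and without PFC saline library 4, 8 were higher and 1 lower in NAc than in PFC. The shares of all genes called in these smaller fits are not given here, so their counts describe the members only. Cell markers differed strongly between regions. All 7 oligodendrocyte markers were lower in NAc than in VTA (median -1.64, summed level 5903 to 6933 CPM in NAc, 3999 to 9374 in PFC and 14025 to 27959 in VTA), and their part in the values of the members was not tested.

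Several tissue-restricted isoforms of complex IV differed between regions. Cox7a1 was at 7.13, 4.24, 6.34, 8.58 and 6.28 RPKM in VTA of saline mice at 28 days, against 0.591 to 2.21 (median 0.941) in NAc and 0.813 to 2.32 (median 1.52) in PFC. No library of NAc or PFC reached the VTA range. As a ratio of mean RPKM, the scale of all folds given here, the gene was 5.63-fold higher in VTA than in NAc (edgeR log2 fold change -2.51, SE 0.31, edgeR adjusted p = 1.8e-06; exact permutation p = 0.00216, the smallest possible) and 4.16-fold higher than in PFC, whereas NAc and PFC did not differ beyond their spread (-0.44, edgeR adjusted p = 0.304). At 1 day, in other mice, VTA ran from 3.56 to 5.39 RPKM (median 4.90), NAc from 0.678 to 2.05 (median 1.19) and PFC from 0.579 to 2.25 (median 1.25). The ranges were again apart, by 3.76-fold against NAc and 3.63-fold against PFC. At 28 days Cox7a1 had 46 to 139 reads per library in VTA, 8 to 27 in NAc and 14 to 28 in PFC. At 1 day it had 37 to 58, 6 to 20 and 6 to 22, respectively. Its common counterpart Cox7a2 was not called between any regions at either time, and lay at 137 to 211 RPKM in all 3 at 28 days. The pericyte and smooth muscle markers were at 306 to 1612 CPM in VTA, 269 to 379 in NAc and 279 to 365 in PFC at 28 days, with none at 0, and their part in Cox7a1 was not tested.

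Cox6b2 followed the same order. It was at 2.80, 3.12, 3.64, 5.57 and 4.35 RPKM in VTA at 28 days, 1.17 to 1.78 (median 1.49) in NAc and 0.591 to 1.504 (median 1.00) in PFC. VTA lay above both other regions without overlap, by 2.59-fold over NAc and 3.73-fold over PFC, and at 1 day by 1.99-fold and 3.33-fold, also without overlap. At 28 days Cox6b2 had 51 to 136 reads per library in VTA, 19 to 42 in NAc and 10 to 27 in PFC. At 1 day it had 27 to 55, 14 to 29 and 8 to 20, respectively. NAc lay above PFC with overlapping ranges, which did not pass at 28 days (log2 fold change 0.53, edgeR adjusted p = 0.0646) and passed at 1 day (0.74, edgeR adjusted p = 0.0248). The common isoform Cox6b1 differed between NAc and VTA by -0.24 (edgeR adjusted p = 0.0474), a call lost without VTA saline library 1 (-0.12, edgeR adjusted p = 0.189).

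Cox6a2 had the opposite order. At 1 day it was at 1.14 to 2.97 RPKM (median 2.14) in NAc, 1.63 to 2.25 (median 2.07) in PFC and only 0.104 to 0.249 (median 0.141) in VTA. That was 2 to 4 reads per library in VTA, 19 to 53 in NAc and 26 to 41 in PFC. NAc was 12.8-fold above VTA in mean RPKM (edgeR log2 fold change 3.65, SE 0.28, edgeR adjusted p = 5.8e-10), and NAc and PFC lay within 0.06 of each other on the log2 scale. At 28 days the VTA libraries were scattered, at 4.75, 0.257, 0.189, 2.03 and 1.47 RPKM, against 6.26 to 9.09 (median 6.92) in NAc and 4.74 to 8.97 (median 7.52) in PFC. VTA still lay wholly below NAc, by 4.11-fold, and overlapped PFC through library 1 alone. Cox6a1, the common isoform, was at 299 to 497 RPKM and was called in no region contrast with all libraries. Without VTA saline library 1 it was higher at 28 days in NAc (0.32, edgeR adjusted p = 0.0277) and PFC (0.34, edgeR adjusted p = 0.0206) than in VTA.

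Cox4i2 was highest in NAc. At 28 days it was at 4.25 to 7.73 RPKM (median 4.78) there, 2.28 to 3.90 (median 2.62) in PFC and 3.87, 2.35, 2.91, 2.34 and 2.71 in VTA. NAc lay above both other regions without overlap, by 1.93-fold over PFC and 1.91-fold over VTA, and PFC and VTA did not differ beyond their spread. At 1 day the log2 differences were 0.84 and 0.56, and both passed. Cox4i1, by contrast, was not called at 28 days, and was lower at 1 day in NAc (-0.23, edgeR adjusted p = 0.0377) and PFC (-0.29, edgeR adjusted p = 0.0128) than in VTA. Cox8a, the common isoform of a further subunit, ran from 480 to 626 RPKM in PFC, 448 to 604 in NAc and 358 to 459 in VTA at 28 days. It was among the few nuclear members higher in PFC than in VTA, by 0.46 at 28 days and 0.37 at 1 day, without overlap at either time. Its muscle isoform Cox8b was at most at 1.32 RPKM in saline mice at 28 days and was not tested.

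**Figure D5:**
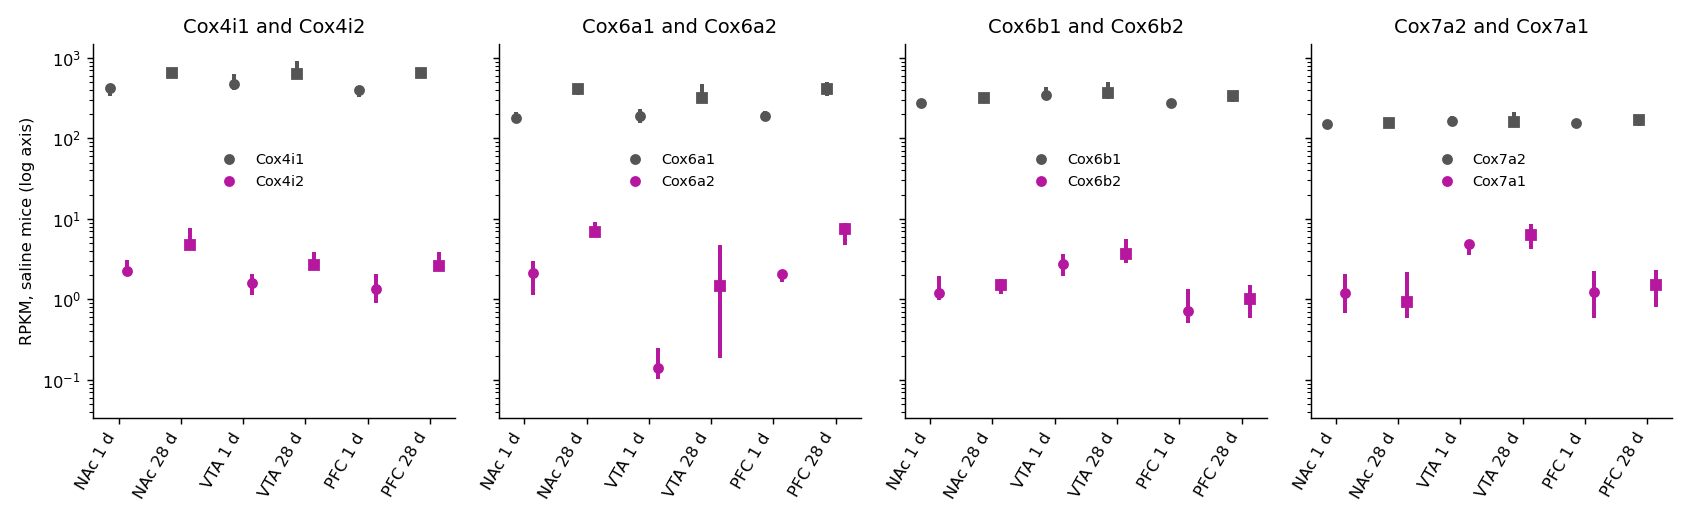
RPKM on a log axis of 4 pairs of complex IV isoform genes in saline mice by region, with lines from the lowest to the highest library, circles for the median at 1 day and squares at 28 days. The common isoforms lie close together across regions, whereas Cox7a1 and Cox6b2 are highest in VTA, Cox6a2 lowest in VTA and Cox4i2 highest in NAc.

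RefSeq promoter windows, 250 bases before to 50 after the start in assembly GRCm38.p6, were matched by symbol for 66 of the 86 nuclear symbols. The windows of the 2 isoform genes that were highest in VTA at both times, and of the common isoform Cox6a1 for contrast, are shown with motif matches in capitals. The motifs searched on both strands were CCAAT, the NRF1 motif (a palindrome, spelled by the first capitals of the Cox6a1 window), the ETS motif CCGGAAG, the YY1 motif AAGATGGC and TATAAA, and positions give the first base of a match, counted from 0 at the start. Cox7a1 holds CCAAT on the minus strand at -137 and -74 (GC content 53%). Cox6b2 holds CCAAT at 17 on the plus strand and at -206 and -9 on the minus strand (GC content 55.7%). Cox6a1 holds the NRF1 motif at -162 and CCAAT at -74 on the plus strand and the ETS motif at -16 on the minus strand (GC content 63%).
Cox7a1, chr7:30183921-30184220, plus strand: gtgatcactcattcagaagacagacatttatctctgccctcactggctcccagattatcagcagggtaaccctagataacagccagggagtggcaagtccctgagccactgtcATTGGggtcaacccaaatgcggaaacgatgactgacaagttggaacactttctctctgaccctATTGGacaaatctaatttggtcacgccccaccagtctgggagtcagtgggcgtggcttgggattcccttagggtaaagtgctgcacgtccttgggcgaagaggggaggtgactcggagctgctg
Cox6b2, chr7:4753045-4753344, minus strand: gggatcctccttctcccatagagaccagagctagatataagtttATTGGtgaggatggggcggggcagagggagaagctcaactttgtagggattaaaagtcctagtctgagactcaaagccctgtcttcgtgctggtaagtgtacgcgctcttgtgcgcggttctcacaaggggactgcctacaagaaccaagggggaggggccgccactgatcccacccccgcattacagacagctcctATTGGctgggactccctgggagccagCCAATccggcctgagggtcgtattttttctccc
Cox6a1, chr5:115348909-115349208, minus strand: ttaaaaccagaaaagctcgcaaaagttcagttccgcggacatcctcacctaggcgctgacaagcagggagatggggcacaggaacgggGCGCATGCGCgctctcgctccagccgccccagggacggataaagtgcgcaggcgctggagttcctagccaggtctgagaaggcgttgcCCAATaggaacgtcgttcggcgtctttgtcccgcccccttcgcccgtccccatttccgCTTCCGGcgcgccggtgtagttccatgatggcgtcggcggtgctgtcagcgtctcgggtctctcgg

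Counting a gene once if any of its windows holds the motif, the NRF1 motif was found in 5 of the 66 matched members (7.58%), Atp5g2, Atp5k, Cox6a1, Ndufa11 and Uqcrc1, and in 1.07% of all 27025 genes with RefSeq windows. The ETS motif was found in 16 members (24.2% against 9.93% of all genes), the YY1 motif in 9 (13.6% against 3.19%), CCAAT in 29 (43.9% against 41.1%) and TATAAA in 7 (10.6% against 15.7%). The median GC content was 57.3% over windows of members and 52.7% over other windows. The part of GC content in these motif shares was not tested. A match describes letters in the window and not a bound site.

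Of the 35 tested members of complex I, 2 were higher and 11 lower in NAc than in VTA at 28 days (median -0.20), where 32.6% of all genes were lower, and 4 were higher and 20 lower at 1 day (median -0.26), where 33.3% were. In PFC against VTA it was 0 and 12 at 28 days (median -0.22, all genes lower 29.8%) and 1 and 28 at 1 day (median -0.36, all genes lower 32.9%). At 28 days these counts were close to the share of all genes. Ndufb8, a subunit of the membrane arm, showed the pattern in every library. It was at 108.9, 69.4, 68.6, 62.5 and 77.1 RPKM in VTA at 28 days, 48.4 to 59.0 (median 52.7) in NAc and 47.8 to 60.2 (median 56.4) in PFC. VTA lay above both without overlap, and did so at 1 day, at 64.003 to 89.4 RPKM (median 68.0) against 41.0 to 51.4 (median 43.8) and 43.1 to 45.2 (median 44.4). The log2 fold change of NAc against VTA was -0.54 (SE 0.11, edgeR adjusted p = 0.000517) at 28 days and -0.67 (SE 0.072, edgeR adjusted p = 9.1e-08) at 1 day.
The Ndufb8 window is shown for this pattern, with its YY1 motif at 38 in capitals (GC content 55.3%).
Ndufb8, chr19:44555393-44555692, minus strand: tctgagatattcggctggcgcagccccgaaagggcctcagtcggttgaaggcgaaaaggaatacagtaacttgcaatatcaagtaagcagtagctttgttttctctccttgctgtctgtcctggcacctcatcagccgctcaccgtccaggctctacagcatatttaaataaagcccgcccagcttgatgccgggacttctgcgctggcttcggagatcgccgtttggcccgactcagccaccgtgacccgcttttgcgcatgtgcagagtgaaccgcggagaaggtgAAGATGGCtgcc

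A few complex I genes stood against that direction. Ndufs4, an accessory subunit needed for the assembly of the NADH-oxidising module, was at 41.8 to 49.0 RPKM (median 45.1) in NAc, 30.2 to 42.8 (median 36.3) in PFC and 30.4 to 48.8 in VTA at 28 days. It was higher in NAc than in VTA by 0.30 on the log2 scale and than in PFC by 0.31, and at 1 day by 0.26 and 0.30. The X-linked Ndufa1 was likewise higher in NAc, at 94.8 to 116 RPKM (median 105) against 65.1 to 93.8 (median 76.3) in PFC, without overlap, and 71.8 to 120.3 in VTA. Its log2 differences were 0.44 and 0.29 at 28 days and 0.52 and 0.22 at 1 day. Ndufb10 was higher in NAc than in PFC by 0.29 (edgeR adjusted p = 0.037) at 28 days and 0.32 at 1 day. Single libraries decided some 28-day calls. That of Ndufs4 against VTA was lost without VTA saline library 3, 4 or 5 (lowest value 0.23), and that of Ndufb10 without NAc saline library 1, 4 or 5 or PFC saline library 2, 3, 5 or 6 (lowest value 0.27).

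In complex II, the only complex without mitochondrial members, 2 of 4 members were lower in NAc and in PFC than in VTA at 28 days, Sdha and Sdhc. Of all genes, 32.6% were lower in NAc and 29.8% in PFC. Sdha, which was named after its values were seen, was at 227, 191, 185, 188 and 190.0 RPKM in VTA at 28 days, 133 to 153 (median 149) in NAc and 153 to 157 (median 153) in PFC. The VTA range lay above both at 28 days and again at 1 day, at 205 to 240.2 RPKM against 163 to 180 and 168 to 181. The log2 differences from VTA were -0.43 in NAc and -0.35 in PFC at 28 days, and -0.38 and -0.37 at 1 day. Sdhc, a membrane anchor of the complex, was at 38.2, 30.3, 30.8, 31.8 and 31.5 RPKM in VTA, 26.4 to 31.2 (median 28.0) in NAc and 21.5 to 25.6 (median 22.9) in PFC. It was the member of this complex that also differed between NAc and PFC, by 0.29 at 28 days and 0.32 at 1 day, with no overlap at 1 day. Its call between NAc and VTA at 28 days (-0.20) was lost without VTA saline library 1 (-0.13, edgeR adjusted p = 0.0513).

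In complex V, 4 of 17 members were lower in NAc than in VTA at 28 days and 7 at 1 day, with none higher, where 32.6% and 33.3% of all genes were lower. In PFC against VTA at 1 day, 10 were lower (all genes 32.9%). Atp5s, the coupling factor, was at 8.05 to 9.75 RPKM in VTA, 5.35 to 6.97 in NAc and 6.37 to 7.19 in PFC at 28 days, without overlap. Of the 3 subunit c genes, Atp5g3 was lower in PFC than in VTA at both times (-0.37 and -0.29) and lower in NAc at 28 days (-0.28) but not called at 1 day (-0.12, edgeR adjusted p = 0.237). Atp5g1 and Atp5g2 were not called at 28 days, but without VTA saline library 1 Atp5g2 was higher in NAc than in VTA (0.30, edgeR adjusted p = 0.00441). In complex III, Uqcrc1, a core subunit, was lower in NAc than in VTA (-0.33 and -0.39 at 28 days and 1 day), and Uqcr11 was higher in NAc than in VTA at 28 days (0.39, SE 0.15, edgeR adjusted p = 0.0295), a call that was lost without any 1 of NAc saline libraries 1 and 5 or VTA saline libraries 2 to 5 (lowest value 0.31). Cox5a, a common subunit of complex IV, was at 349.5, 194, 195, 201 and 225 RPKM in VTA, 151 to 177 (median 164) in NAc and 146 to 187 (median 168) in PFC at 28 days. The VTA range lay above both others, and the NAc against VTA difference of -0.51 was -0.31 without VTA saline library 1.

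Among the 7 mitochondrial members outside the copied set, mt-Cytb, the only mitochondrial gene of complex III and without an exact copy, was at 7176 to 8955 RPKM (median 8380) in NAc, 4281 to 6568 (median 5344) in PFC, and 3290, 5150, 5671, 5054 and 5129 in VTA at 28 days. NAc lay above both without overlap (log2 fold change against VTA 0.77, SE 0.13, edgeR adjusted p = 5.8e-05), and PFC and VTA did not differ beyond their spread. At 1 day NAc was at 9919 to 14897 RPKM, PFC at 6989 to 11468 and VTA at 6008 to 9046, with NAc again wholly above VTA and now overlapping PFC. The catalytic subunit gene of complex IV, mt-Co1, was at 9580 to 13633 RPKM in NAc and 5803 to 9279 in VTA at 28 days (0.53, edgeR adjusted p = 0.00319), and differed by 0.59 at 1 day. The complex I gene mt-Nd4 was higher in NAc than in VTA by 0.79 and than in PFC by 0.64 at 28 days, without overlap. Only mt-Nd6 was called between PFC and VTA at 28 days (0.57, edgeR adjusted p = 0.00719), at 12.5 to 20.6 RPKM against 12.2, 14.7, 12.4, 9.00 and 9.49, and it did not pass at 1 day (0.45, edgeR adjusted p = 0.151).

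The copied set had the larger region differences. In NAc against VTA the median was 0.83 over the 6 copied genes and 0.59 over the other 7 at 28 days, with 5 and 7 called, and 1.22 and 0.62 at 1 day, with 6 and 7 called. In PFC against VTA at 1 day it was 0.68 and 0.26, with 3 and 1 called, where 31.6% of all genes were higher. The medians of both sets were above 0 against VTA at both times. At 28 days the NAc against VTA call of mt-Nd5 (0.55) was lost without any 1 of 9 libraries, among them NAc saline library 2 and VTA saline library 4, and its value was 0.33 without VTA saline library 1. That of mt-Atp6 (0.91) was lost without VTA saline library 5 (0.83). mt-Atp8 was the most variable, at 6.89 to 119 RPKM in VTA alone at 28 days, and it did not pass there (0.90, edgeR adjusted p = 0.110) but passed at 1 day (1.92, edgeR adjusted p = 0.00113).

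The other lists were compared between the regions in the same way, beside the shares of all genes. Of 18 citric acid cycle genes, 0 were higher and 12 lower in NAc than in VTA at 28 days, and 0 and 10 at 1 day (medians -0.20 and -0.20; all genes lower 32.6% and 33.3%). Of 20 biogenesis regulators, 9 were higher and 4 lower in NAc than in VTA at 28 days (all genes 29.8% and 32.6%), among them Esrrb, which was lower by -3.57 (edgeR adjusted p = 6.7e-08) and at 1 day by -3.03. Gabpa, a subunit of the ETS factor that binds promoters of many nuclear members, was higher in NAc than in PFC at both times (0.47, edgeR adjusted p = 3.1e-05, and 0.42, edgeR adjusted p = 3.4e-05). Assembly factors were divided, with 10 of 31 higher and 11 lower in NAc than in VTA at 28 days, near those shares. Glycolysis genes were lower in NAc than in PFC for 11 of 16 at 28 days (median -0.37) and 9 at 1 day (all genes 20.7% and 20.4%). The cytosolic ribosomal protein genes were higher in NAc than in PFC for 30 of 80 at 28 days and 24 at 1 day (all genes 20.0% and 20.5%). Of the mitochondrial ribosomal protein genes, 13 of 76 were lower in PFC than in VTA at 28 days and 36 of 75 at 1 day (all genes 29.8% and 32.9%).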

How the data were processed

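RNA-seq libraries of 71 mouse brain micro-punches were used. Per the labels, the authors aligned reads to mm9 with STAR 2.4.1d and an Ensembl annotation; the counting program, strand and treatment of reads with several matches are not given in the sources used here. Raw counts per gene were deposited for 4 tables and, for the other 2 (VTA and PFC at 1 day), RPKM by the authors, from which whole reads could be recovered for all genes (within 0.01 of a whole number). The deposited comparison columns (fold changes and p-values) and 30 columns of no sample were not used. Genes were tested with edgeR 4.0.16 (quasi-likelihood, TMM, at least 10 counts and 15 in total by its filter) or, on log2(RPKM + 0.1) with a mean of at least 0.5 RPKM, with limma 3.58.1 (R 4.3.3), two-sided, and p was adjusted by Benjamini-Hochberg over all genes with a threshold of 0.05. Fold changes from RPKM are on the log2(RPKM + 0.1) scale, which understates low genes. Interactions and region contrasts used edgeR on counts and recovered reads. Single members had exact permutation tests over libraries. DESeq2 1.42.0 was an alternative. Tests were checked on simulated data. Levels are RPKM from TMM-scaled counts, scaled within a table for cocaine and across regions for region contrasts. The exception is cocaine against saline in VTA and PFC at 1 day, where levels are the RPKM by the authors, without TMM scaling. Depth was 20971967 to 49700932 reads.

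Named members were all mitochondrial ones, the 5 nuclear members with the smallest p in each direction per cocaine comparison, the 5 called nuclear members with the largest change in each direction per region contrast at 28 days, isoform pairs, and 2 genes of each other list; further ones are values chosen after they were seen. One member that the rule names is not reported here. Members and lists were chosen with earlier results of these data known. Replicate numbers at 1 day gave no sign of pairing. Between cocaine and saline, 3 of 18 correlated best with their own number. Between regions in saline mice, only number 1 (NAc with PFC) and number 5 (PFC with VTA) did.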

Additional observations from a re-analysis of the deposited data

Results flagged for a closer look

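Of 84 groups of libraries examined, 4 had a library far from the others, where chance alone gives about 1 in 20. The nuclear share of reads was 0.850% in 1 saline PFC library at 1 day (nearest 0.872%) and 1.66% in saline VTA library 1 at 28 days (nearest 1.25%). Ndufa4l2 was at 0.485 RPKM in 1 saline NAc library at 1 day (nearest 1.04), and Cox6b2 at 15.2 RPKM in 1 cocaine VTA library at 1 day (nearest 4.35).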

How the results depend on the processing

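No member was called for cocaine under any alternative. The values below are counts of members with an unadjusted p under 0.05 unless said otherwise. Shares of all genes are not given for these alternatives, so the counts describe the members only. Leaving out 1 library at a time gave 0 to 10 in NAc at 1 day (10 without saline 4, 4 without cocaine 6, 2 without cocaine 5), 0 to 2 in VTA at 1 day (2 without cocaine 5), 0 to 3 in PFC at 1 day (3 without saline 3), 0 to 5 in NAc at 28 days (5 without cocaine 6), 1 to 13 in VTA at 28 days (1 without saline 1, 13 without saline 4) and 1 to 5 in PFC at 28 days (5 without saline 5). In VTA at 1 day (0 as reported), edgeR on recovered reads gave 5, the same with mitochondrial genes left out of the scaling 3, and DESeq2, chosen after seeing the data, 4. With the covariate for cortical tissue the mitochondrial median there was 0.19, Ndufa4l2 -0.18 and Cox8a -0.033. In PFC at 1 day (1 as reported), a pseudocount of 1 gave 2, no filter 0 and the replicate block 0. DESeq2 gave 2 in NAc at 28 days. An adjusted p under 0.25 gave 0 in PFC at 1 day and in all regions at 28 days (NAc 0, VTA 0, PFC 0). Cox6a2 in VTA at 28 days ran from -0.31 to 0.90 without 1 library, below 0 without cocaine 2 or 6 or saline 2 or 3.

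Between regions at 28 days, leaving out 1 library gave 21 to 37 nuclear calls for NAc against VTA (21 without NAc saline 4, 37 without VTA saline 1) and 6 to 20 for NAc against PFC (20 without VTA saline 1). Shares of all genes called are not given for the alternatives of this paragraph, so the counts describe the members only. Requiring also a change of 2-fold either way (1 on the log2 scale), nuclear and mitochondrial calls at 28 days were 3 and 0 (NAc against VTA), 0 and 0 (NAc against PFC) and 3 and 0 (PFC against VTA), and at 1 day 2 and 4, 0 and 0, and 3 and 0. Without the 6 copied genes, chosen after seeing the data, mitochondrial calls were 7 and 5 against VTA and PFC in NAc at 28 days, and at 1 day 7 for NAc and 1 for PFC against VTA. The replicate block at 1 day gave 2 mitochondrial calls for PFC against VTA (4 as reported). It changed no other count by over 1.5 times, and no paired analysis was possible at 28 days because the column numbers differ from those of the sample titles and so name no library. For PFC against VTA at 28 days, leaving out 1 library gave -0.041 to 0.14 for mt-Nd1, -0.11 to 0.13 for mt-Nd2, -0.088 to 0.14 for mt-Nd3, -0.026 to 0.23 for mt-Nd4 and -0.13 to 0.19 for mt-Nd5, each below 0 without VTA saline 1. The call of Uqcrc1 between NAc and PFC (-0.20) was lost without any 1 of 8 libraries. The cause of these changes was not tested.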
